A study of Mus musculus with 10 samples.

Results

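Slitrk5, Pcdh17, Npffr1, Epha8, Gldn and Kcnk2 encode membrane proteins known mainly from neurons and the glia that wrap them, and all 6 had more reads in cultured adipocyte stem and precursor cells (ASPCs) given the AHR ligand FICZ than in cells given vehicle. They were picked by symbol from the 25229 genes of the count table because they were low in vehicle and higher with FICZ, so the difference between the groups chose them and is given here as a description without a test. The cells were Pdgfra+ and negative for CD45 and CD31 when sorted from the perigonadal white adipose tissue (gWAT) of mice with a WT genotype. They were grown in culture to confluence and then received FICZ at 100 nM or the vehicle DMSO, with lysis after 6 hr in both groups. Bulk RNA was sequenced from 5 DMSO and 5 FICZ libraries, numbered 1 to 5 in each group. The libraries held between 38328611 and 50210111 counts. Nothing in the labels says whether the numbers stand for separate mice or separate wells, so the spread between libraries may be technical.

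The aryl hydrocarbon receptor (AHR) is a transcription factor that waits in the cytoplasm until a ligand such as FICZ, a photoproduct of tryptophan, binds it. It then enters the nucleus, pairs with ARNT and binds DNA at the dioxin response element, whose core is GCGTG. The 6 genes belong to separate families. Slitrk5 is a leucine-rich repeat adhesion protein of synapses. Pcdh17 is a delta-2 protocadherin, a cadherin-type adhesion protein that recruits actin regulators to cell contacts. Npffr1 is a Gi/o-coupled receptor for RFamide neuropeptides. Epha8 is a receptor tyrosine kinase for ephrins, which guide axons by contact. Gldn (gliomedin) is carried by Schwann cells and gathers sodium channels at the node of Ranvier. Kcnk2 (TREK-1) is a potassium channel with a pair of pore domains that sets resting membrane potential and opens on stretch.

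The treatment itself was visible in the classical AHR targets. Cyp1a1, a monooxygenase that degrades AHR ligands, was at 26.8 ± 12.8 CPM with DMSO and 255 ± 92.4 CPM with FICZ (SD, n = 5 each; log2 fold change 3.25, edgeR quasi-likelihood adjusted p = 0.0189). Ahrr, the repressor that AHR induces against itself, was at 10.1 ± 2.21 and 32.1 ± 2.87 CPM (log2 fold change 1.66, edgeR adjusted p = 0.00324). CPM is the count relative to a library of 1e6 reads, after scaling the libraries by edgeR's TMM method.

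RefSeq promoter windows, 250 bases before to 50 after each start site on GRCm38.p6, were matched for all 6 genes and gave 9 windows, since Kcnk2 has several start sites. GCGTG, searched on both strands, lay in 6 of the 9 windows and in 5 of the 6 genes. Epha8 held 5 copies, Pcdh17 3, Slitrk5 2, Gldn 2 and the 4 Kcnk2 windows 0, 1, 0 and 2, while Npffr1 held 0. Among 32851 promoter windows of the same length, 32.4% held the core, and among the 9690 with at least 60% GC the share was 59.2%. The GC content of the windows ran from 65.0% to 84.3% outside the first 2 of Kcnk2, which had 43.0% and 54.7%. Windows with 5 or more copies, as in Epha8, made up 0.463% of all windows and 1.33% of those rich in GC. Neither share is matched to Epha8, whose window had 84.3% GC and 56 CG dinucleotides. The windows rich in GC had medians of 66.7% and 27, and the core itself contains CG. The longer TNGCGTG, which contains the core, was present in Epha8, Gldn and the fourth Kcnk2 window, against 5.07% of all windows and 8.72% of those rich in GC. These matches describe letters in the windows and show no binding.

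The bases before the start site are shown for the gene with the most cores, for Pcdh17 with cores on both strands, for Gldn with its longer match, and for Npffr1, which had the core in neither strand. Capitals mark GCGTG, written CACGC where it lies on the other strand, and each run is read 5′ to 3′ on the gene's own strand.
Epha8 (GRCm38.p6 chr4:136956817-136957066, minus strand): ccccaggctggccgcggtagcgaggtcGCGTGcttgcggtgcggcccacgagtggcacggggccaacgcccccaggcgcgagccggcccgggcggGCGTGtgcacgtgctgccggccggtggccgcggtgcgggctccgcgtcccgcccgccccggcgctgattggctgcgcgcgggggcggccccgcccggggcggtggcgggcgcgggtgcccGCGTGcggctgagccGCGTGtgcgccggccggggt
Pcdh17 (GRCm38.p6 chr14:84443313-84443562, plus strand): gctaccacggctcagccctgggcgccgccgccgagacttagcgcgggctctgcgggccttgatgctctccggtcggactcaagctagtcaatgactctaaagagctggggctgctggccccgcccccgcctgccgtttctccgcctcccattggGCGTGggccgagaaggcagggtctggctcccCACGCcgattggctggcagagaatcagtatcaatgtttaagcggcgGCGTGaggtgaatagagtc
Gldn (GRCm38.p6 chr9:54286236-54286485, plus strand): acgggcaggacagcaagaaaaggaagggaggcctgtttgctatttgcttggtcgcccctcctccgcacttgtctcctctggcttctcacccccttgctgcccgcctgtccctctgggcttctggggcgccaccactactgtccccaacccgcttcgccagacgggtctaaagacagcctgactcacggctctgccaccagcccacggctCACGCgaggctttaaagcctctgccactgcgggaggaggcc
Npffr1 (GRCm38.p6 chr10:61595045-61595294, plus strand): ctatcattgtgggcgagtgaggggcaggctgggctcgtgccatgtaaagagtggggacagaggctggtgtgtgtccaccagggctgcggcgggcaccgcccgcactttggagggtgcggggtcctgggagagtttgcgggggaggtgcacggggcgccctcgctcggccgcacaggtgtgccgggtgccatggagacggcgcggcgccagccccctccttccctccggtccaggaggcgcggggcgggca
In Epha8 the capitals start 223, 155, 35 and 20 bases before the start site, and the fifth copy lies after it. In Pcdh17 they start 96, 65 and 19 bases before it, and the single upstream copy in Gldn, which is also the longer match, starts 41 bases before it. The RefSeq start of Npffr1 lies 197 bases from the first base of the GENCODE gene. That of Slitrk5 lies 930 bases from it, with its window inside the annotated gene. The starts of Kcnk2 windows 2 to 4 lie 58081 to 58920 bases from it.

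With vehicle all 6 genes were low. Per kb of exon, Kcnk2 had the highest level in the DMSO libraries at 1.41 ± 0.476 CPM per kb, followed by Gldn at 0.997 ± 0.402, Pcdh17 at 0.217 ± 0.0347, Slitrk5 at 0.136 ± 0.0477, Npffr1 at 0.0232 ± 0.0240 and Epha8 at 0.00837 ± 0.00549 (SD, n = 5). Of the 14026 tested genes with a known exon length, 25.3% were lower than Kcnk2 and 21.3% lower than Gldn, but 7.88% were lower than Pcdh17, 4.94% lower than Slitrk5 and 0.135% lower than Npffr1. The order therefore falls into 3 neighbouring pairs, Kcnk2 with Gldn, Pcdh17 with Slitrk5 and Npffr1 with Epha8, within which the ranges of the libraries overlapped and between which they did not. The same 3 pairs stood apart with FICZ, at 2.11 ± 0.638 CPM per kb for Kcnk2 and 2.08 ± 0.787 for Gldn, 0.352 ± 0.0608 for Slitrk5 and 0.344 ± 0.0482 for Pcdh17, and 0.149 ± 0.0658 for Npffr1 and 0.0712 ± 0.0339 for Epha8. Fewer cells that transcribe a gene and less RNA per cell cannot be told apart in bulk RNA.

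Slitrk5 (GRCm38 chr14:111675097-111683141, plus strand) is one of a family that joins synaptic membranes through receptor phosphatases of the LAR type. Its counts in DMSO libraries 1 to 5 were 27, 28, 18, 36 and 52, and in FICZ libraries 1 to 5 they were 94, 91, 63, 63 and 90. Every FICZ library lay above the highest DMSO library. In CPM the means were 0.716 ± 0.251 and 1.85 ± 0.320 (SD, n = 5), a log2 fold change of 1.37 (standard error 0.26). Within same-numbered pairs the ratio was 3.11, 3.43 and 3.86 for numbers 1 to 3 and 1.75 and 1.95 for numbers 4 and 5, whose DMSO libraries had the highest Slitrk5.

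Pcdh17 (GRCm38 chr14:84443563-84539002, plus strand) had the smallest relative spread. Its DMSO counts were 102, 122, 141, 146 and 116 and its FICZ counts were 171, 210, 220, 180 and 181. The groups did not overlap here either, with the FICZ libraries at 4.00 to 5.55 CPM and the DMSO libraries at 2.38 to 3.36 CPM. The coefficient of variation was 16.0% with DMSO and 14.0% with FICZ, the lowest of the 6 in both groups, and the log2 fold change was 0.66 (standard error 0.16). The pair ratios ran from 1.23 for number 4 to 1.82 for number 2.

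Npffr1 (GRCm38 chr10:61595492-61628565, plus strand) binds the RFamide peptides made from Npff and Npvf. It had 6, 2, 8, 1 and 0 counts in the DMSO libraries and 17, 20, 30, 11 and 33 in the FICZ libraries. All FICZ libraries exceeded all DMSO libraries, although 3 of the 5 DMSO libraries were at or under 3 counts, which stand for 0.0603 to 0.0787 CPM depending on the library. The 17 counts with DMSO and 111 with FICZ gave means of 0.0807 ± 0.0834 and 0.519 ± 0.229 CPM. The fitted log2 fold change of 2.7 (standard error 0.63) depends, at these counts, on the prior count. Npffr1 passed the filter on low counts through the FICZ libraries alone, and a gene that does so has to be higher with FICZ. Library number 5 had the fewest Npffr1 reads with DMSO and the most with FICZ.

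Epha8 (GRCm38 chr4:136929419-136956816, minus strand) was nearer still to the floor of detection with vehicle. The DMSO libraries held 1, 1, 2, 1 and 4 counts and the FICZ libraries 14, 9, 13, 10 and 26. The groups did not overlap, and their means were 0.0394 ± 0.0259 and 0.335 ± 0.160 CPM. Epha8 did not pass edgeR's filter on low counts, so its log2 fold change of 2.97 (standard error 0.54) comes from a fit without that filter. The chi-square per degree of freedom against library size was 0.791 with DMSO, where 9 counts in all can hardly show spread beyond counting error. With FICZ it was 3.39.

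Gldn (GRCm38 chr9:54286486-54341786, plus strand) differed from these 4 genes in that its groups overlapped. Its DMSO counts were 157, 280, 323, 140 and 139 and its FICZ counts were 406, 534, 595, 294 and 256. FICZ libraries 4 and 5, at 6.77 and 5.91 CPM, lay below DMSO library 3 at 7.40 CPM. Within same-numbered pairs the ratio was 2.31, 2.01, 2.03, 2.10 and 2.07, so that the difference varied far less than the level. The SD of the 5 pair differences was 0.0785 on the log2 scale, whereas libraries within a group had an SD of 0.553. The chi-square per degree of freedom was 34.1 with DMSO and 58.0 with FICZ, so the spread within a group went well beyond counting error. The log2 fold change was 1.06 with a standard error of 0.31 without the replicate number as a block and 1.07 with a standard error of 0.086 with it.

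Kcnk2 (GRCm38 chr1:189207930-189402273, minus strand) followed Gldn across the libraries. Its counts were 263, 369, 463, 231 and 220 with DMSO and 458, 485, 609, 398 and 291 with FICZ. Only FICZ libraries 1 and 3 were above the highest DMSO library, which was number 3. The pair ratios ran from 1.39 to 1.72, with an SD of 0.118 on the log2 scale against 0.449 within a group. The log2 fold change was 0.59 (standard error 0.25), and 0.60 (standard error 0.085) with the block. Of its 4943 exon bases, 604 overlap exons of the antisense gene A430027H14Rik, and whether the counting used strand is not given in the sources used here. The other 5 genes share no exon bases with another gene, and no stretch of 50 bases from any of the 6 occurs in another gene's transcripts.

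**Figure D1:**
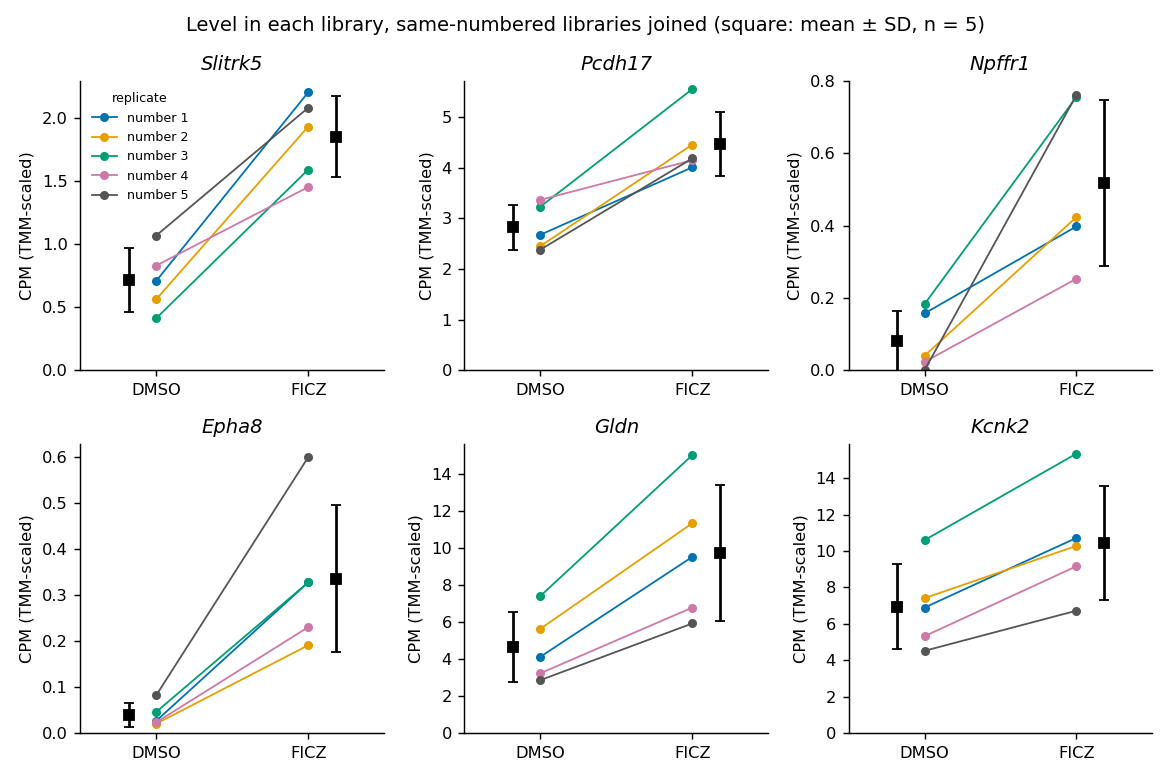
Level of each gene (TMM-scaled CPM, linear axis from 0, a separate scale in each panel) in the 5 DMSO and 5 FICZ libraries, with lines joining libraries of the same number and squares giving the mean ± SD (the lower bar of Npffr1 with DMSO is cut at 0). Every line rises, and the groups overlap in the panels of Gldn and Kcnk2.

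The direction was the same in every pair for every gene, and the genes divided in how even it was. In each of the 5 pairs all 6 genes were higher with FICZ, a pattern that 4.32% of the tested genes had, and 4 of the 6 had no overlap between groups, as had 0.351% of the tested genes. The tested genes leave out Epha8, which did not pass the filter, and hold Npffr1, which passed it through the FICZ libraries alone. With edgeR, 0 of the 5 members tested were called higher at an adjusted p of 0.05, against 0.0211% of all genes tested. With the replicate number as a block 1 was called, Gldn, against 0.0561%. DESeq2 called Slitrk5, Pcdh17, Npffr1 and Epha8, 4 of 6, against 0.0845% of its genes. DESeq2 with the block called Slitrk5, Gldn and Kcnk2, 3 of 6, against 0.135%. These counts describe genes that were chosen on the same contrast, and the genes called with the block include the pair whose groups overlapped.

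**Figure D2:**
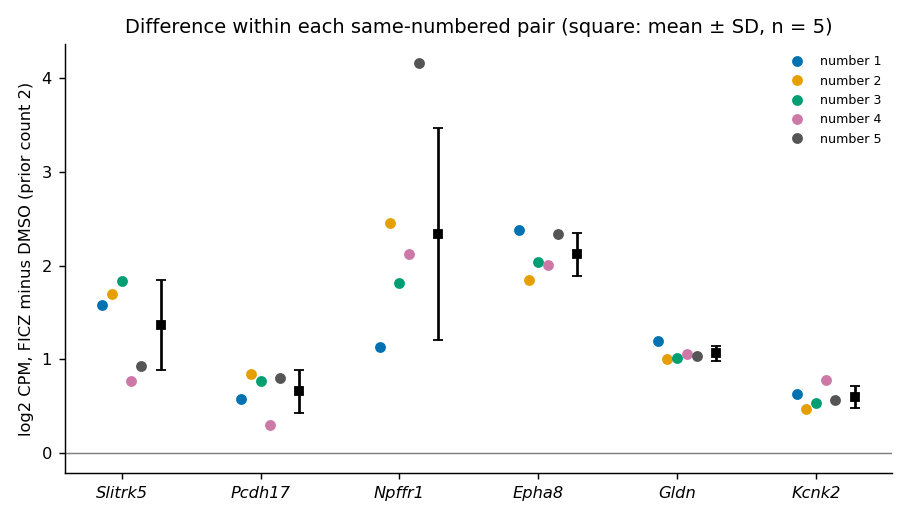
Difference in log2 CPM (prior count of 2) between the FICZ and DMSO library of each number, one point per pair coloured by number, with squares for the mean ± SD of the 5 pairs. All points lie above 0, and those of Gldn (1.00 to 1.20) and Kcnk2 (0.47 to 0.78) are tightly grouped while those of Npffr1 run from 1.13 to 4.15.

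The libraries' levels within a group showed that Gldn and Kcnk2 varied together in both groups, and that Slitrk5 ran opposite to them among the DMSO libraries. For Gldn the order from high to low was number 3, 2, 1, 4 and 5 in both groups. Kcnk2 had that order with DMSO, and with FICZ numbers 1 and 2 changed places. Over the 10 libraries, the deviations of log2 CPM from the group mean had a Pearson correlation of 0.955 between Gldn and Kcnk2, -0.68 between Slitrk5 and Gldn and -0.76 between Slitrk5 and Kcnk2. The negative values came mainly from the 5 DMSO libraries (-0.988 with Gldn and -0.986 with Kcnk2), and among the 5 FICZ libraries they were -0.139 and -0.361. Same-numbered libraries deviate together, so the 10 points are fewer than 10 independent ones, and the values are descriptions. For Slitrk5 the order with DMSO was 5, 4, 1, 2 and 3, the exact reverse of the order of Gldn, and with FICZ it was 1, 5, 2, 3 and 4. Pcdh17 had correlations of 0.47 with Gldn, 0.53 with Kcnk2 and -0.38 with Slitrk5.

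**Figure D3:**
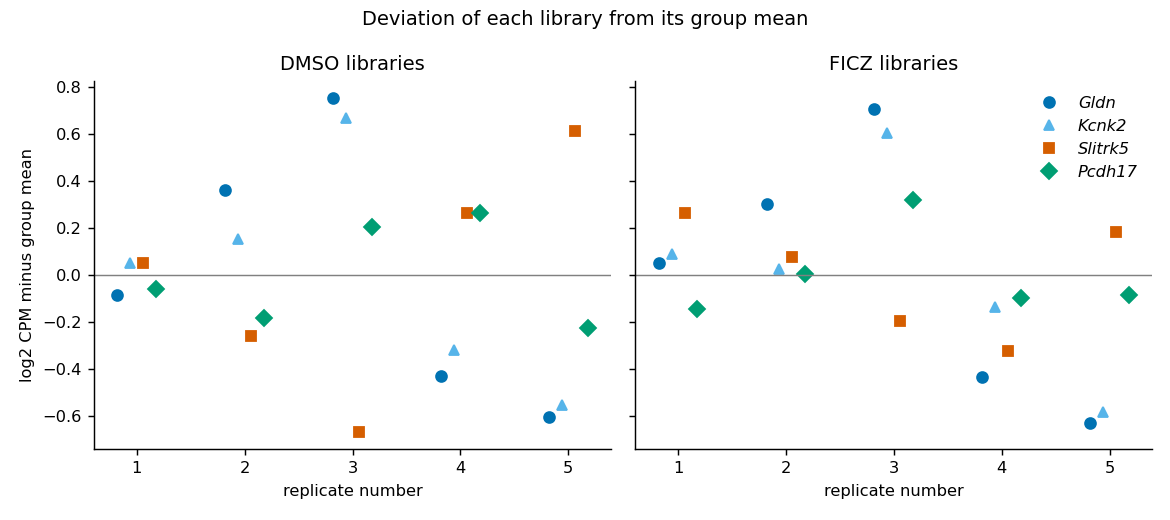
Deviation of log2 CPM from the group mean for Gldn, Kcnk2, Slitrk5 and Pcdh17 by replicate number, with DMSO libraries on the left and FICZ libraries on the right, one point per library. Gldn and Kcnk2 are highest in number 3 and lowest in number 5 in both groups, while Slitrk5 is lowest in number 3 and highest in number 5 among the DMSO libraries.

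Among 12645 genes with a mean of at least 1 CPM, those whose deviations were most like each gene's were named by rank. Taking the top of 12645 correlations over 10 libraries gives high values in part by the ranking itself. A tie between the genes was not tested. For Gldn they were Naa25, Stk4 and Ipo7, with correlations of 0.984, 0.982 and 0.982 over the 10 libraries. Kcnk2 was most like Stambpl1 (0.980), Ereg (0.979) and Champ1 (0.976), and was itself at rank 28 for Gldn. For Slitrk5 they were Acadm (0.976), Abhd10 (0.973) and Masp1 (0.959), and for Pcdh17 Slc45a4 (0.917), Tmc6 (0.901) and Trim9 (0.897). None of the 12 passed the threshold between FICZ and DMSO in edgeR's test (adjusted p = 0.999 for each). Their log2 fold changes lay between -0.28 for Masp1 and 0.15 for Naa25, apart from Ereg, an EGF family ligand, at 0.54.

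The families around the 6 genes were read from 106 relatives: adhesion partners, ligands, receptors, channels and the intracellular proteins they act through. Of these 66 passed the filter on low counts and 9 had no read in any library. In edgeR's test 0 of the 66 passed the threshold in either direction, with no adjusted p below 0.999, and DESeq2 with or without the block also called 0. Without adjustment, 3 had a p of at most 0.05, where 4.82% of all tested genes had such a p in either direction, and the block also gave 3, where 4.65% of all tested genes did. The relatives' log2 fold changes were above 0 for 28 and below 0 for 38, with a median of -0.013 against 0.011 for all genes tested.

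By role, the receptor phosphatases that bind SLITRK proteins were well represented, with Ptprs at 148 ± 14.7 CPM and Ptprd at 32.0 ± 3.35 CPM in the DMSO libraries. The other Slitrk genes were low, and of these Slitrk2 alone passed the filter (0.0337 CPM per kb with DMSO, against 0.0232 for Npffr1). Slitrk1 had no read and Slitrk2 at most 19 in a library. The adhesion protein Flrt2 was the most abundant of the 20 genes in that list per kb (20.2 CPM per kb with DMSO), and its log2 fold change was -0.020 (standard error 0.11).

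Among 19 relatives of Pcdh17, the actin regulator Nckap1 of the WAVE complex was the most abundant per kb at 88.3 CPM per kb with DMSO (log2 fold change 0.0077). Pcdh10, another delta-2 protocadherin, was at 0.335 ± 0.0649 CPM with DMSO and 0.188 ± 0.0286 CPM with FICZ, lower in all 5 pairs (log2 fold change -0.82, edgeR unadjusted p = 0.0104, adjusted p = 0.999). The WAVE complex subunit Cyfip2 was at 0.199 ± 0.0376 and 0.330 ± 0.0967 CPM, higher in 5 of 5 pairs (log2 fold change 0.73, edgeR unadjusted p = 0.0335, adjusted p = 0.999). With the block the unadjusted edgeR p of Cyfip2 was 0.0566. Pcdh12 reached an unadjusted p of 0.0215 only with the block (edgeR log2 fold change -0.55) and is named because the count with the block is small. Neither direction was shared across the list, in which 7 of the 17 tested were above 0.

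Of the RFamide peptide genes listed with Npffr1, Npff alone passed the filter, at 0.483 CPM per kb with DMSO against 0.0232 for Npffr1. Npvf, Kiss1 and Prlh had no read in any library, and the paralogous receptor Npffr2 had at most 5. Npff, the precursor of neuropeptide FF, was at 0.484 ± 0.0988 CPM with DMSO and 0.512 ± 0.0927 CPM with FICZ (log2 fold change 0.078, standard error 0.25). The inhibitory G protein subunit Gnai2 was the most abundant of the 13 per kb at 124 CPM per kb.

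Of the 21 ephrins and Eph receptors, 17 passed the filter. Efnb1, a transmembrane ephrin, was the most abundant per kb (34.7 CPM per kb with DMSO, log2 fold change 0.084). Of the ephrin-A ligands that Epha8 binds, Efna5 was at 12.8 ± 2.06 CPM with DMSO and 12.5 ± 2.02 CPM with FICZ. The log2 fold changes of the family lay between -0.50 for Efna1 and 0.18 for Efnb3, and none passed the threshold.

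Both axonal partners of gliomedin were measured. Nrcam was at 293 ± 69.9 CPM with DMSO and 310 ± 46.9 CPM with FICZ, and Nfasc at 11.3 ± 2.82 and 11.3 ± 2.65 CPM. Bmp1 and Furin, proteases that release gliomedin from the membrane, had log2 fold changes of -0.050 and -0.017. Olfml3, a secreted protein with an olfactomedin domain, was the most abundant of this list per kb at 31.6 CPM per kb.

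Besides Kcnk2, only Kcnk5 and Kcnk6 of the 13 other channels with paired pore domains passed the filter. Kcnk5 was the most abundant of these per kb (3.01 CPM per kb with DMSO, log2 fold change 0.23, standard error 0.11). Kcnk6 was at 4.78 ± 0.713 CPM with DMSO and 5.94 ± 0.488 CPM with FICZ, higher in 5 of 5 pairs (log2 fold change 0.31, edgeR unadjusted p = 0.0372, adjusted p = 0.999). Kcnk9, Kcnk16 and Kcnk18 had no read.

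**Figure D4:**
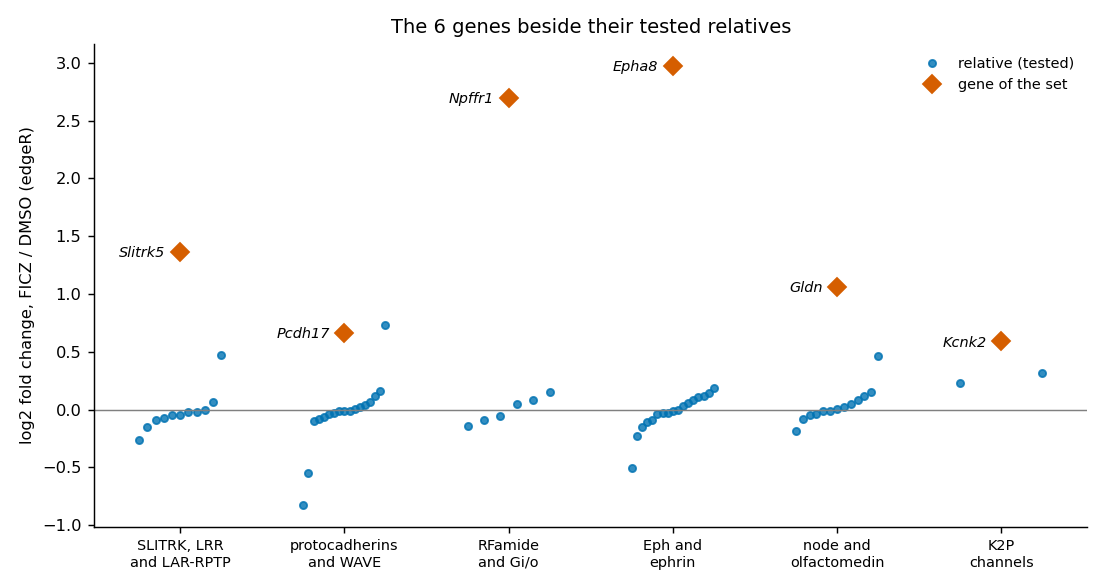
Log2 fold change (FICZ over DMSO, edgeR) of the 66 tested relatives (circles, sorted within each family) and of the 6 genes (diamonds, Epha8 from the fit without the filter). Relatives lie between -0.82 (Pcdh10) and 0.73 (Cyfip2), and the diamonds, which were chosen for being high, between 0.59 and 2.97.

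Genes beside the 6 on the chromosome gave no call. These were the 24 nearest tested protein-coding genes that overlap none of the 6, with 2 on each side of each gene. Of the 24, 0 passed the threshold in edgeR or DESeq2, each with or without the block. The log2 fold change was above 0 for 12 of them, and the median was 0.0053. At an unadjusted p of 0.05 there were 3, Ppa1, Cnmd and C1qa (4.82% of all tested genes had such a p), and 2 with the block, Ppa1 and Cnmd (4.65% of all tested genes). Ppa1, a pyrophosphatase gene 20.0 kb from Npffr1, had a log2 fold change of 0.30 (standard error 0.12), while Lrrc20, 12.7 kb away on the other side, was at -0.097 (standard error 0.091). C1qa, a complement gene of macrophages 30.6 kb from Epha8, was at -1.09 (standard error 0.47), and Zbtb40, 22.9 kb away on the other side, at 0.076 (standard error 0.11). Cnmd, at -0.75 (standard error 0.27), lay 4781 kb from Pcdh17, with Diaph3 on the other side at -5.23e-05. Dmxl2, 23.4 kb from Gldn, was at 0.14 (standard error 0.12) and Cul5, on the other side, at 0.059. The neighbours of Slitrk5 were far away, Spry2 at 5778 kb and -0.13 and Gpc6 at 5242 kb and -0.061, and those of Kcnk2 were Kctd3 at 0.071 and Cenpf at 0.19.

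The markers of the labelled cell type were high and several defining markers of neurons and Schwann cells were at or near 0. All 10 ASPC markers were above 3 counts in every library, and their summed level was 10372 to 15156 CPM with DMSO and 10164 to 13715 CPM with FICZ. Pdgfra was at 1319 and 1387 CPM on average with DMSO and FICZ. The genes of the antigens sorted against were at 0.745 and 0.354 CPM for Ptprc (CD45) and at 1.48 and 1.01 CPM for Pecam1 (CD31). Of 14 neuronal markers 6 were above 3 counts in every library, and their sum was 27.9 to 90.2 CPM with DMSO and 43.9 to 80.1 CPM with FICZ, nearly all from the filament and tubulin genes Nefl, Nefm and Tubb3. Elavl3, Stmn2 and Th had at most 3 counts in any library and Dbh had none. Of 12 Schwann cell and glial markers 7 were above 3 counts in every library, with a sum of 155 to 299 CPM and 178 to 209 CPM, mostly Pmp22, while the lineage factors Sox10 and Foxd3 had no read in any of the 10 libraries, where 3 counts would be 0.0603 to 0.0787 CPM. None of the markers in either list passed the threshold, and Erbb3 was the single one with an unadjusted edgeR p of at most 0.05 (log2 fold change -1.11, unadjusted p = 0.0335, and 0.147 with the block). With the block 1 neuronal marker had such a p, Nefl (edgeR log2 fold change 0.45, unadjusted p = 0.0492).

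The other lists are given by their summed levels. Over all marker lists, 0 of 65 tested genes passed the threshold in edgeR or DESeq2, and 12 had an unadjusted edgeR p of at most 0.05, where 4.82% of all tested genes did. Of the 12, 9 were hepatocyte markers, with log2 fold changes below 0. With the block 7 markers had such a p, where 4.65% of all tested genes did, and 0 of the 7 were hepatocyte markers. Immune markers were at 21.8 to 37.8 CPM with DMSO and 20.1 to 33.3 CPM with FICZ (6 of 8 above 3 counts in every library), endothelial markers at 65.2 to 87.9 and 70.3 to 85.2 CPM (6 of 7), and mesothelial markers at 69.7 to 113 and 72.4 to 88.4 CPM (8 of 8). Mural markers were at 49.9 to 91.1 and 61.0 to 87.6 CPM (7 of 7) and adipocyte markers at 23.0 to 51.9 and 16.4 to 47.5 CPM (5 of 6). Hepatocyte markers, all 10 above 3 counts in every library, summed to 1532 to 8831 CPM with DMSO and 1659 to 2239 CPM with FICZ, and the sum was higher with FICZ in 2 of the 5 pairs. The highest sum was in DMSO library 5, which also had the highest Slitrk5 of its group and the lowest Gldn and Kcnk2. Without that library the log2 fold change of Slitrk5 was 1.56, and the part of liver-type RNA in the order of the DMSO libraries was not tested.

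**Figure D5:**
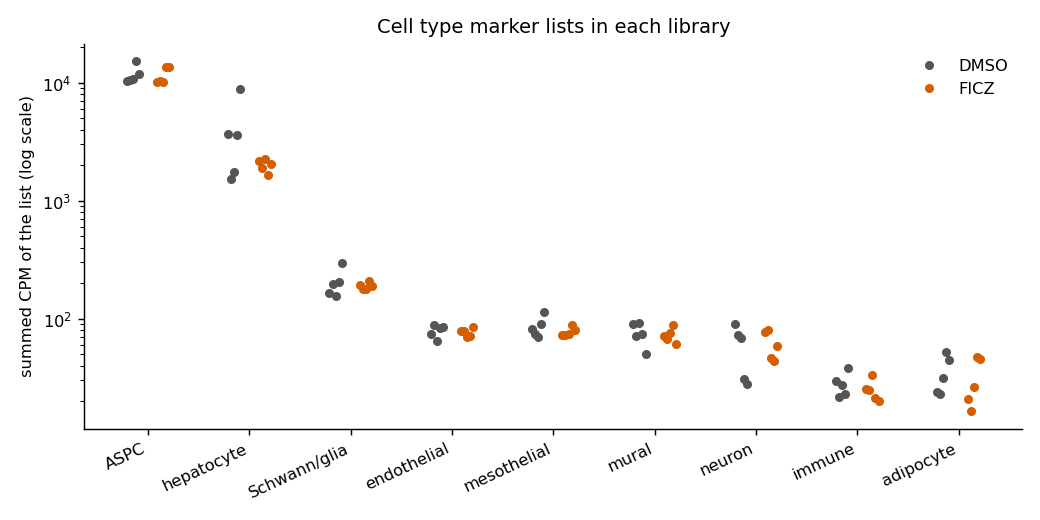
Summed CPM (log scale) of each cell type marker list in the 5 DMSO (grey) and 5 FICZ (orange) libraries, one point per library. ASPC markers lie between 10164 and 15156 CPM, neuronal markers between 27.9 and 90.2 CPM, and one DMSO library stands at 8831 CPM for hepatocyte markers.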

How the data were processed

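RNA from 10 samples of cultured mouse ASPCs, 5 with DMSO and 5 with FICZ, was sequenced. The authors aligned the reads with STAR (version 2.7.7, per the submitters' processing notes) to mm10 and deposited raw counts per gene for all libraries in one table. The counting program, its annotation and its use of strand are not given in the sources used here. On the deposited counts the main test was edgeR's quasi-likelihood F test (version 4.0.16, R 4.3.3, TMM scaling, filterByExpr, robust fit), with Benjamini-Hochberg adjustment over all 14251 tested genes and a threshold of 0.05. DESeq2 (1.42.0), limma-voom (3.58.1), other scalings and filters, a replicate block and leaving out each library were the alternatives. edgeR, DESeq2 and limma-voom, each with and without the block, were first run on simulated counts that held no replicate effect. The other scalings and filters and the left-out libraries were not simulated. CPM used a prior count of 2 on the log2 scale.

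Same-numbered DMSO and FICZ libraries deviated together (correlations of 0.154 to 0.317, against a mean of -0.060 for different numbers), so the numbers were read as pairs, a pairing that comes from these correlations and the labels' numbers. The block lowered edgeR's common biological coefficient of variation from 0.209 to 0.170.

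The 6 genes, the lists of relatives and markers and the tests were chosen with earlier results of these data known, and the study had itself picked several of the 6 on these libraries. Named were the 6 genes, Cyp1a1 and Ahrr, relatives at an unadjusted p of at most 0.05 and the most abundant of each family. Also named were the nearest tested protein-coding gene on each side and any past the threshold. So were the 3 genes most like each member with a mean of at least 20 counts. Other relatives and markers are named as examples of their role and were chosen after their values were seen. Positions and exon lengths came from GENCODE M21, and promoters from RefSeq. The floors of 3 counts cover counting error only, whereas the SDs of levels are between libraries.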

Additional observations from a re-analysis of the deposited data

How the results depend on the processing

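The log2 fold changes of all 6 genes kept their direction and moved by less than the spread between replicates in each of the 18 alternatives. Leaving out 1 library at a time, they ranged from 1.22 to 1.56 for Slitrk5, 0.57 to 0.74 for Pcdh17, 2.36 to 3.27 for Npffr1, 2.66 to 3.41 for Epha8, 0.85 to 1.29 for Gldn and 0.41 to 0.79 for Kcnk2. For Gldn and Kcnk2 both ends came from leaving out number 3 of one group, which breaks its pair. The number of genes past the threshold was 3 with edgeR, 8 with the replicate block, 16 with DESeq2 and 26 with DESeq2 and the replicate block, and it ranged from 1 to 4 with 1 library left out, at 1 without DMSO library 1 or 2 or FICZ library 1, 2 or 3. The number of relatives past the threshold was 0 in every alternative, and at an unadjusted p of 0.05 it was between 1 and 5. Among the 6 genes the replicate block changed edgeR's call for Gldn only. At 0 to 8 counts per DMSO library for Npffr1 and 1 to 4 for Epha8, depth limits how well their vehicle level and fold change are known.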
